A study of Mus musculus with 4 samples.

Results

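The genes described here are the collagen chains, chosen from the deposited transcript table as every gene whose symbol is Col, a number, a and a number. There were 44 of them among 20701 gene symbols. Each was read from 1 transcript entry, the one with the highest summed count over the 4 libraries. The study differentiated mouse embryonic stem cells of the E14 line carrying Tg(Nkx2-5-EmGFP), a transgene in which Nkx2-5 regulatory sequence drives a green fluorescent protein, into cardiac progenitor cells (CPCs), and sorted the GFP-positive cells on day 5. The 2 control libraries (control 1 and control 2) came from separate control clones, and the 2 Isl1_KO libraries (Isl1_KO 1 and Isl1_KO 2) from separate Isl1-/- clones that CRISPR/Cas9 editing had given. All 4 therefore carried the same reporter, the undifferentiated cells of both genotypes were grown on mouse embryonic fibroblast feeders, and each genotype rests on 2 clones. In the study's directed differentiation, the cells were moved to gelatin before they were aggregated. The protocol speaks of different clones, and each library was taken as 1 of them. Isl1 encodes a LIM-homeodomain protein of second heart field progenitors, and setting the genotypes side by side asks which transcripts differ without it.

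Collagens are triple helices of polypeptide chains, each kind of chain encoded by a gene of its own. The fibrillar types form the banded fibres that give tissue its tensile strength, and in the heart they make up much of the interstitial matrix and the valve matrix. Type IV collagen forms the sheet-like network of basement membranes, to which the multiplexins Col15a1 and Col18a1 also belong. Of the remaining types, the fibril-associated collagens (FACITs) sit on the surface of fibres, type VI forms beaded microfilaments around cells, type VIII forms short-chain networks of vessel walls, and others span the plasma membrane. The 44 chains were divided on this basis into 11 fibrillar, 8 basement membrane and 25 other chains.

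Counts over 1 entry per gene summed to 8821517 and 9147425 in the control libraries and to 13186109 and 11388333 in the Isl1_KO libraries. Isl1 itself was measured at 35.1 and 35.7 CPM (counts-per-million, by the library's effective size) in control and at 1.31 and 2.08 CPM in Isl1_KO (log2 fold change -4.39 ± 0.212 SE, n = 2 per group, adjusted p = 0.00277, quasi-likelihood F test of edgeR). Nkx2-5, the gene behind the sort, read 21.1 and 19.8 CPM in control libraries and 4.77 and 4.34 CPM in Isl1_KO (adjusted p = 0.00703 in the same test). The control libraries varied much less from each other than the Isl1_KO libraries did, with a coefficient of biological variation of 1.29% within control and 16% within Isl1_KO. The joint value over both groups was 11.0%, which describes neither group, and this limits the p-values of the test. The levels of the collagen chains are therefore given below for each Isl1_KO library apart, as well as for the group.

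Collagen chains took a smaller share of all counts in both Isl1_KO libraries than in either control library. The share was 0.557% and 0.553% in control, 0.437% in Isl1_KO 1 and 0.293% in Isl1_KO 2. In these mixed cell populations, fewer cells of a type and less RNA per cell cannot be told apart. Of the 44 chains, 35 passed the filter on low counts and were tested. Of these, 2 fell in Isl1_KO and 0 rose at an adjusted p under 0.05 in edgeR, with adjustment over all 12715 genes tested. This is 5.71% of the tested chains, against 2.45% of all genes called in either direction, 1.94% called lower and 0.503% called higher. They were Col2a1, the chain of the main cartilage collagen, and Col18a1, a basement membrane chain whose end fragment is endostatin.

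More chains lay on the lower side without passing that threshold. At an unadjusted p under 0.05 there were 16 chains, 14 of them lower and 2 higher. Among the lower ones, Col8a1 and Col9a2 reached the level of the low-count filter in both controls but in only 1 Isl1_KO library. This favours a lower value, and both chains are also counted among the 31 and the 25 given below. The lower ones were 40.0% of those tested, against 12.2% of all genes called lower and 23.3% called in either direction. The fitted log2 fold change was below 0 for 31 of 35 chains (88.6%) and for 50.4% of all genes. In 25 chains (71.4%) both Isl1_KO libraries lay below both control libraries, which was so for 29.0% of all genes. The reverse order held for 3 chains, Col27a1, Col9a3 and Col8a2, and for 29.1% of all genes, and in the other 7 chains the groups overlapped. The median log2 fold change over the tested chains was -0.60, and over all genes it was -0.00272. By the study's own criteria applied to DESeq2, a change of more than 1.5-fold with an unadjusted p under 0.05, 14 of the 44 chains were called, 13 of them lower, against 5.89% of all genes in either direction and 4.57% lower. At an adjusted p under 0.05 in DESeq2, 6 chains were called, all lower (Col2a1, Col18a1, Col5a2, Col11a1, Col9a1 and Col22a1), against 4.67% of all genes.

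**Figure D1:**
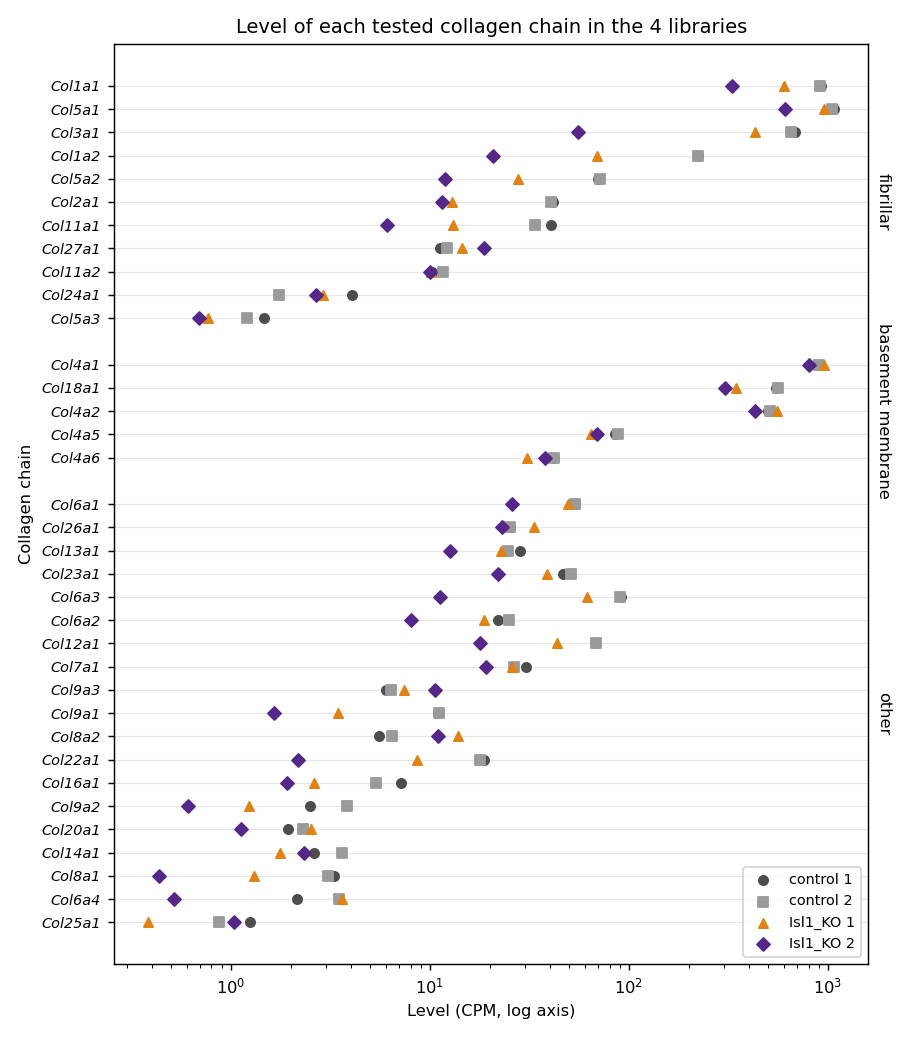
Level of each of the 35 tested collagen chains in the 4 libraries, in CPM on a log axis, grouped by class and ordered by level per kilobase. The control points lie close together for most chains above 10 CPM, and Isl1_KO 2 is the leftmost point for most fibrillar and other chains, while the points of Col4a1 and Col4a2 lie together.

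The 2 Isl1_KO clones were then set against control one at a time, as the difference in log2(CPM + 1) from the mean of both controls; such a difference has no replicate check and carries no test. In Isl1_KO 1, 6 of 35 chains were more than 2-fold lower than control (17.1%, against 2.58% of all genes) and 1 chain, Col8a2, was more than 2-fold higher (against 0.157%). In Isl1_KO 2, 18 of 35 chains were more than 2-fold lower (51.4%, against 5.69% of all genes) and 0 were more than 2-fold higher (against 0.991%). The median difference was -0.42 in Isl1_KO 1 and -1.01 in Isl1_KO 2. Set against each other, Isl1_KO 2 was below Isl1_KO 1 in 29 of 35 chains (82.9%, against 48.3% of all genes). It was more than 2-fold below in 8 chains (22.9%, against 1.75%) and more than 2-fold above in 0 (against 0.716%). Both clones thus lay on the same side of control for most chains, at different distances from it.

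**Figure D2:**
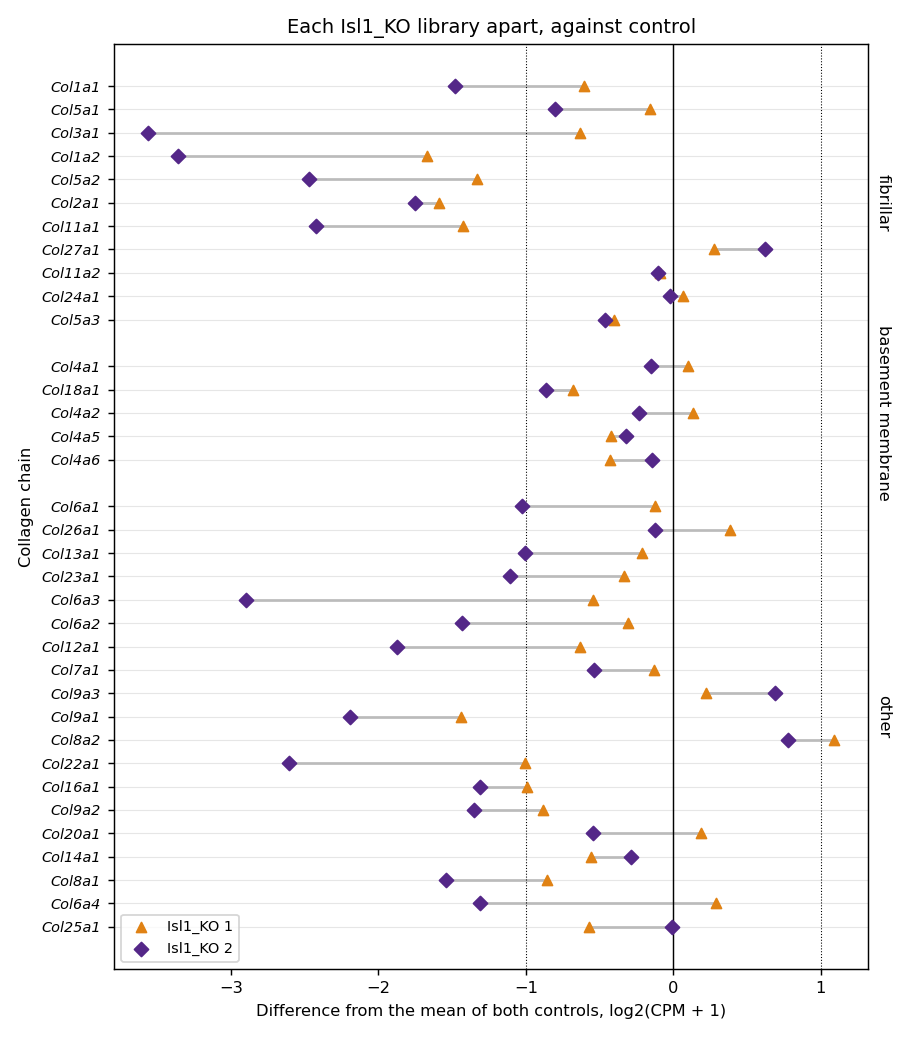
Difference of each Isl1_KO library from the mean of both control libraries in log2(CPM + 1), for the 35 tested chains in the order of the plot of levels; dotted lines mark a 2-fold difference. Isl1_KO 2 lies left of Isl1_KO 1 in 29 chains, with the widest gaps for Col3a1 and Col6a3, and Col2a1 and Col18a1 have both points close together and away from 0.

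Among the fibrillar chains, Col1a1, Col5a1, Col3a1, Col1a2 and Col5a2 were the most abundant per kilobase, and the values of each differed more between the Isl1_KO clones than between the controls. All 11 fibrillar chains were tested. Of these, 10 had a fitted value below 0 (90.9%, against 50.4% of all genes), and 1 was called (9.09%, against 2.45%). Their median log2 fold change was -0.98, with a median of -0.60 for Isl1_KO 1 and -1.48 for Isl1_KO 2.

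Col2a1 (chromosome 15, 97806033 to 97835155, minus strand, mm9) was measured at 41.5 and 40.8 CPM in control, 13 CPM in Isl1_KO 1 and 11.5 CPM in Isl1_KO 2. Both Isl1_KO libraries were low, close to each other, and did not overlap with control. The fitted log2 fold change was -1.74 ± 0.115 (SE, n = 2 per group) with an adjusted p of 0.00562 in edgeR. When control 1 was left out the fold change was -1.73 with an adjusted p of 0.108, and when control 2 was left out it was -1.76 with an adjusted p of 0.0942.

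Col1a1 and Col1a2 encode the chains of type I collagen, the main fibre of tendon, bone and scar. Col1a1 was at 925 and 910 CPM in control, 603 CPM in Isl1_KO 1 and 328 CPM in Isl1_KO 2. Col1a2 (chromosome 6, 4454814 to 4491543, plus strand, mm9) was at 223 and 221 CPM in control, 69.2 CPM in Isl1_KO 1 and 20.7 CPM in Isl1_KO 2. For both chains Isl1_KO 2 was the lowest library, and neither overlapped with control. An exon of Col1a1 overlaps one of the gene model Gm17329 on the opposite strand, with which reads could be shared. The fitted log2 fold change was -0.98 ± 0.279 (SE, n = 2 per group, adjusted p = 0.133 in edgeR) for Col1a1 and -2.30 ± 0.514 (adjusted p = 0.0910) for Col1a2, so neither passed the test. In percent of the control mean, Col1a1 was at 65.8% and 35.7% and Col1a2 at 31.1% and 9.33% in Isl1_KO 1 and 2.

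Col3a1 (chromosome 1, 45368383 to 45406551, plus strand, mm9), the single chain of type III collagen, which is found with type I in elastic tissues and vessel walls, had the widest gap between the clones of all 35 tested chains. It was at 684 and 649 CPM in control and 429 CPM in Isl1_KO 1, but at 55.4 CPM in Isl1_KO 2. The Isl1_KO 1 level was thus 64.3% of the control mean and the Isl1_KO 2 level 8.32%. The fitted log2 fold change was -1.46 ± 0.853 (SE, n = 2 per group), with an adjusted p of 0.364 in edgeR. The gene lies 24615 bases from Col5a2, on the opposite strand, and the fibrillar chain Col5a2 was at 70.3 and 71.9 CPM in control, 27.7 CPM in Isl1_KO 1 and 12 CPM in Isl1_KO 2. Its clones thus differed less than those of Col3a1 (log2 difference of Isl1_KO 2 from Isl1_KO 1 of -1.14, against -2.93).

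Col5a1 and Col5a2 belong to type V collagen, which starts and limits the growth of type I fibres. Col5a1 was at 1075 and 1048 CPM in control, 952 CPM in Isl1_KO 1 and 609 CPM in Isl1_KO 2. The fitted log2 fold change was -0.44 ± 0.209 (SE, n = 2 per group, adjusted p = 0.279 in edgeR), and that of Col5a2 was -1.83 ± 0.366 (adjusted p = 0.0776). Neither passed the test, and both had all Isl1_KO values below control. Col5a3, the remaining type V chain, averaged 1.34 ± 0.192 CPM over the controls and 0.731 ± 0.0528 CPM over Isl1_KO (SD, n = 2 each). It passed the low-count filter through the control libraries alone, which favours a lower value. It is counted among the 31 chains fitted below 0 and the 25 below both control libraries.

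Further fibrillar chains were chosen for mention after their values had been seen. Col11a1, a chain of type XI collagen that joins type II fibres, was at 40.6 and 33.6 CPM in control, 13.1 CPM in Isl1_KO 1 and 6.07 CPM in Isl1_KO 2 (log2 fold change -1.94 ± 0.347, adjusted p = 0.0655 in edgeR). Its partner Col11a2 averaged 10.9 ± 0.977 CPM over the controls and 10.1 ± 0.0585 CPM over Isl1_KO (SD, n = 2 each). Col27a1 was the only fibrillar chain with both Isl1_KO libraries above both controls, at 11.2 and 12.3 CPM against 14.5 and 18.7 CPM (adjusted p = 0.194 in edgeR). Col24a1 averaged 2.92 ± 1.65 CPM over the controls and 2.81 ± 0.164 CPM over Isl1_KO.

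The sequence upstream of the start is shown for 3 chains that differed in pattern, Col1a2 (low in both clones), Col3a1 (low mainly in Isl1_KO 2) and Col8a2 (high in both clones, described below). Windows upstream of the annotated start were taken from RefSeq (GRCm38.p6) and were held for 35 of the 44 chains, 38 windows in all; Col1a1, Col2a1, Col4a3, Col5a2, Col9a3, Col12a1, Col14a1, Col22a1 and Col26a1 had none. Each of the runs below is the 250 bases before the start, 5′ to 3′ on the strand of the gene, at chr6:4505368-4505617 for Col1a2, chr1:45311288-45311537 for Col3a1 and chr4:126286544-126286793 for Col8a2, all on the plus strand. Capitals mark matches to 4 short motifs, each searched on both strands and none a part of another. The letters searched were TATAAA for the classical box near many start sites, CCAAT for the element that the factor NF-Y binds, GGGCGG for the GC box that Sp1 binds, and CTAATG for the core of a motif of Isl1.
Col1a2: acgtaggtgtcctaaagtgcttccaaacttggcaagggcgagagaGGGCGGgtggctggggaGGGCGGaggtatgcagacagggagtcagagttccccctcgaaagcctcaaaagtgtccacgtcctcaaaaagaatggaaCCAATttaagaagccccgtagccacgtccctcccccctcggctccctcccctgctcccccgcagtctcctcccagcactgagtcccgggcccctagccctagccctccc
Col3a1: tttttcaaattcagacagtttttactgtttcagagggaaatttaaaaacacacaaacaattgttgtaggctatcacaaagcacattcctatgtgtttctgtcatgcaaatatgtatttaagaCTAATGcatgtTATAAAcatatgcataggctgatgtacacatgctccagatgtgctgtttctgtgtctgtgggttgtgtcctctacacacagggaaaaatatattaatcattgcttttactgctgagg
Col8a2: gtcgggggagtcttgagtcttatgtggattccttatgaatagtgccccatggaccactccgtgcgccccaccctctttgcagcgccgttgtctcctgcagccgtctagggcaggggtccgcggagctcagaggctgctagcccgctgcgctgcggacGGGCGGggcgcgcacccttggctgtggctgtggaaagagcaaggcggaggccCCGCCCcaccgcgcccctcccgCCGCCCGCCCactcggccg
The Col1a2 window held 2 GC boxes and a CCAAT box at -109 from the start. The Col3a1 window held no GC box, a TATAAA at -117 and a CTAATG at -128, and the Col8a2 window held 4 GC boxes, of which those at -19 and -15 overlap. Over the 38 windows of the collagen chains, GGGCGG was found in 22 (57.9%), against 32.7% of all 32851 windows. CCAAT was found in 13 (34.2%, against 33.8%), TATAAA in 5 (13.2%, against 12.4%) and CTAATG in 2 (5.26%, against 6.36%), those of Col3a1 and Col16a1. A match is a run of letters and not a measured binding site, and factor binding was not analysed here.

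Among the basement membrane chains, Col18a1 was called and the abundant type IV chains stayed within 1.5-fold of control in both clones. Of 8 chains, 5 were tested, and all 5 had a fitted value below 0, against 50.4% of all genes. In either clone 0 were more than 2-fold lower, against 2.58% of all genes in Isl1_KO 1 and 5.69% in Isl1_KO 2. With only 5 chains tested, a count of 0 does not set this class apart from all genes. The median log2 fold change was -0.29, with -0.42 for Isl1_KO 1 and -0.23 for Isl1_KO 2.

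Col4a1 and Col4a2, which together make the type IV network found in nearly all basement membranes, were the most abundant type IV chains. Col4a1 was at 886 and 902 CPM in control, 957 CPM in Isl1_KO 1 and 805 CPM in Isl1_KO 2. Col4a2 was at 500 and 511 CPM in control, 555 CPM in Isl1_KO 1 and 430 CPM in Isl1_KO 2. In both chains Isl1_KO 1 was the highest library and Isl1_KO 2 the lowest, so the groups overlapped. The fitted log2 fold change was -0.02 ± 0.100 (SE, n = 2 per group, adjusted p = 0.923 in edgeR) for Col4a1 and -0.04 ± 0.131 (adjusted p = 0.895) for Col4a2. Both values turned positive with a correction for transcript length, to 0.050 and 0.032.

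The 2 genes lie head to head on chromosome 8, Col4a1 at 11198423 to 11312826 on the minus strand and Col4a2 at 11312805 to 11449287 on the plus strand (mm9). In RefSeq (GRCm38.p6), too, their starts overlap, by the 22 bases chr8:11312805-11312826, given here on the Col4a2 strand because the pair is transcribed outward from it.
Col4a1 and Col4a2 starts: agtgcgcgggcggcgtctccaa
Reads were counted on both strands together, so a read within those bases would count for both genes. The Col4a6 and Col4a5 genes are likewise divergent, 1309 bases apart on the X chromosome.

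Col4a5 and Col4a6 make a type IV network of more restricted tissues. Col4a5 was at 85.5 and 88.4 CPM in control, 64.6 CPM in Isl1_KO 1 and 69.5 CPM in Isl1_KO 2, and Col4a6 was at 41.9 and 42.0 CPM in control, 30.9 CPM in Isl1_KO 1 and 37.8 CPM in Isl1_KO 2. Here Isl1_KO 1 was the lower clone, and neither chain overlapped with control. The log2 fold changes were -0.37 ± 0.0751 (SE, n = 2 per group, adjusted p = 0.0779 in edgeR) and -0.29 ± 0.128 (adjusted p = 0.253). Col4a3 and Col4a4, the chains of the mature glomerular network, had at most 3 counts in every library.

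Col18a1 (chromosome 10, 76514923 to 76629293, minus strand, mm9) was at 547 and 561 CPM in control, 346 CPM in Isl1_KO 1 and 304 CPM in Isl1_KO 2. It was low in both clones by similar amounts, at 62.4% and 54.9% of the control mean, with no overlap. The log2 fold change was -0.77 ± 0.0854 (SE, n = 2 per group) with an adjusted p of 0.0228 in edgeR. Without control 1 the adjusted p was 0.363 and without control 2 it was 0.354, at fold changes of -0.79 and -0.75. Its relative Col15a1 was not tested, with 12 and 6 counts in control and 6 and 2 in Isl1_KO.

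Of the 25 other chains, 19 were tested and 0 were called by edgeR, against 2.45% of all genes. At an unadjusted p under 0.05 there were 8, against 23.3% of all genes, of which 7 were lower (36.8%, against 12.2%). The 7 include Col8a1 and Col9a2, which reached the filter level in only 1 Isl1_KO library. DESeq2 called Col9a1 and Col22a1, against 4.67% of all genes. The median log2 fold change of the 19 was -0.60, with -0.33 for Isl1_KO 1 and -1.11 for Isl1_KO 2. In Isl1_KO 2, 12 of the 19 were more than 2-fold lower than control (63.2%, against 5.69% of all genes). In Isl1_KO 1 there were 2 (10.5%, against 2.58%).

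The type VI chains Col6a1, Col6a2 and Col6a3, which assemble together around cells, were low mainly in Isl1_KO 2. Col6a1 was at 53.9 and 53.8 CPM in control, 49.3 CPM in Isl1_KO 1 and 25.9 CPM in Isl1_KO 2. Col6a2 was at 22 and 25.1 CPM in control, 18.8 CPM in Isl1_KO 1 and 8.07 CPM in Isl1_KO 2. Col6a3 was at 90.8 and 90.2 CPM in control, 61.7 CPM in Isl1_KO 1 and 11.3 CPM in Isl1_KO 2, which is 68.2% and 12.5% of the control mean. None of the 3 passed the test, with log2 fold changes of -0.51 ± 0.295, -0.80 ± 0.383 and -1.30 ± 0.686 (SE, n = 2 per group) and adjusted p of 0.357, 0.283 and 0.322 in edgeR. Col6a4 averaged 2.83 ± 0.951 CPM over the controls and 2.07 ± 2.19 CPM over Isl1_KO (SD, n = 2 each). Its clones lay on opposite sides of both controls, at 3.61 CPM in Isl1_KO 1 and 0.521 CPM in Isl1_KO 2. Col6a5 and Col6a6 had at most 3 counts in every library.

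The transmembrane chain Col13a1, found at sites of cell adhesion, was at 28.3 and 24.8 CPM in control, 22.8 CPM in Isl1_KO 1 and 12.7 CPM in Isl1_KO 2 (log2 fold change -0.58 ± 0.284, adjusted p = 0.294 in edgeR). Col23a1, of the same group, was at 46.5 and 51.2 CPM in control, 38.6 CPM in Isl1_KO 1 and 22.1 CPM in Isl1_KO 2 (-0.68 ± 0.264, adjusted p = 0.209 in edgeR). Both had the lowest value in Isl1_KO 2 and no overlap between the groups. Col26a1 was at 25.2 and 25.4 CPM in control, 33.3 CPM in Isl1_KO 1 and 23.2 CPM in Isl1_KO 2 (0.16 ± 0.192, adjusted p = 0.656 in edgeR), so its clones lay on opposite sides of control. The sign of its fitted change turned to -0.13 without Isl1_KO 1.

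The FACIT and short-chain members below were chosen for mention after their values had been seen. Over the 8 tested FACITs, which include the type IX, XII, XIV, XVI, XX and XXII chains, the median log2 fold change was -1.30. Col12a1, a FACIT of type I fibres, was at 67.4 and 68.6 CPM in control, 43.4 CPM in Isl1_KO 1 and 17.8 CPM in Isl1_KO 2 (adjusted p = 0.178 in edgeR). Col22a1, a FACIT of tissue junctions, was at 18.7 and 17.8 CPM in control, 8.61 CPM in Isl1_KO 1 and 2.17 CPM in Isl1_KO 2 (adjusted p = 0.157 in edgeR). For both chains Isl1_KO 1 lay between control and Isl1_KO 2. Col9a1, a chain of the type IX collagen that coats type II fibres, was at 11.0 and 11.2 CPM in control, 3.46 CPM in Isl1_KO 1 and 1.65 CPM in Isl1_KO 2. Its log2 fold change of -2.10 ± 0.339 (SE, n = 2 per group) had an adjusted p of 0.0542 in edgeR, just above the threshold. Its partner Col9a3 read 6.02 and 6.35 CPM in control libraries and 7.38 and 10.6 CPM in Isl1_KO (0.53 ± 0.239, adjusted p = 0.257 in edgeR). An exon of Col9a3 overlaps one of Tcfl5 on the opposite strand, and counting on both strands lets these genes share reads.

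Col8a2 (chromosome 4, 125964037 to 125991574, plus strand, mm9), a type VIII chain of vessel walls and corneal endothelium, had the highest fitted log2 fold change of the 35 tested chains. It was at 5.56 and 6.46 CPM in control, 13.9 CPM in Isl1_KO 1 and 11.0 CPM in Isl1_KO 2. Both clones were high and did not overlap with control. The log2 fold change was 1.05 ± 0.202 (SE, n = 2 per group) with an adjusted p of 0.0716 in edgeR, so it did not pass the test. Its partner Col8a1 averaged 3.18 ± 0.161 CPM over the controls and 0.870 ± 0.617 CPM over Isl1_KO (SD, n = 2 each, adjusted p = 0.120 in edgeR). The other tested chains of this class were at 1.06 to 28.4 CPM in control, namely Col7a1 (-0.33), Col9a2 (-1.75), Col14a1 (-0.60), Col16a1 (-1.46), Col20a1 (-0.19) and Col25a1 (-0.59), each with its log2 fold change in parentheses. None was called at an adjusted p under 0.05 by edgeR or DESeq2, and Col16a1 and Col9a2 met the study's criteria in DESeq2. The 9 chains that were not tested were Col4a3, Col4a4, Col6a5, Col6a6, Col10a1, Col15a1, Col17a1, Col19a1 and Col28a1. Of these, 7 had at most 3 counts in every library, the other two being Col15a1 and Col19a1, with at most 12.

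With the chains of a class summed, the fibrillar chains were at 3087 and 3001 CPM in control, 2135 CPM in Isl1_KO 1 and 1075 CPM in Isl1_KO 2, which is 70.2% and 35.3% of the control mean. The basement membrane chains were at 2061 and 2104 CPM in control, 1954 CPM in Isl1_KO 1 and 1646 CPM in Isl1_KO 2 (93.8% and 79.0%). Within them the 6 type IV chains summed to 105% and 87.8% of control. The fibrillar share of all collagen CPM was 55.4% and 54.2% in control, 48.2% in Isl1_KO 1 and 37.1% in Isl1_KO 2, while the basement membrane share was 37.0%, 38.0%, 44.1% and 56.9%. In Isl1_KO 2 the basement membrane chains thus held the larger share, in the other libraries the fibrillar chains. The other chains summed to 428, 431, 341 and 174 CPM in the same order. Few abundant chains decide these sums, and the contrast of classes was not tested.

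**Figure D3:**
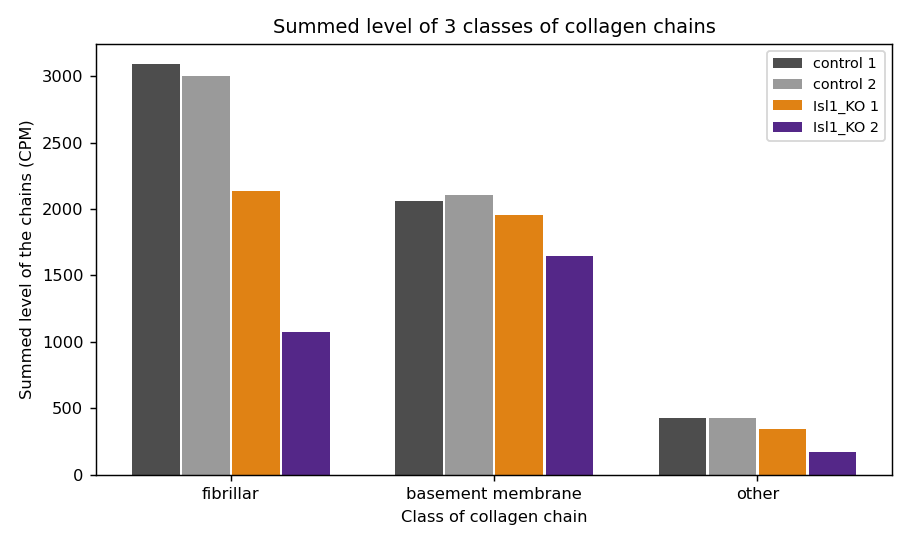
Summed level of the fibrillar, basement membrane and other collagen chains, in CPM, with 1 bar per library. The fibrillar bars step from 3087 and 3001 CPM in control to 2135 and 1075 CPM in the Isl1_KO libraries, while the basement membrane bars lie between 1646 and 2104 CPM.

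Chains that share a trimer were compared within a library, as the share of 1 chain in the counts of both. The 8 pairs were chosen after the values had been seen, the shares are not corrected for length, and the Wilson 95% intervals cover counting error only, as no molecular identifiers were read. Type I collagen is mostly built of a pair of Col1a1 chains with 1 Col1a2 chain. Col1a2 held 19.5% (18.7 to 20.2) and 19.6% (18.8 to 20.3) of the counts of both chains in control, 10.3% (9.67 to 10.9) in Isl1_KO 1 and 5.95% (5.26 to 6.72) in Isl1_KO 2. Per kilobase, Col1a1 was 3.64 and 3.62 times Col1a2 in control, 7.67 times in Isl1_KO 1 and 13.9 times in Isl1_KO 2. The intervals of the clones overlapped neither with control nor with each other.

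For type V, Col5a2 held 6.13% (5.68 to 6.62) and 6.42% (5.96 to 6.91) of the counts of Col5a1 and Col5a2 in control, 2.82% (2.55 to 3.13) in Isl1_KO 1 and 1.93% (1.63 to 2.27) in Isl1_KO 2. For type IX, Col9a1 held 64.7% (56.7 to 71.9) and 63.8% (56.1 to 70.8) of the counts of Col9a1 and Col9a3 in control, 31.9% (24.8 to 40.0) in Isl1_KO 1 and 13.5% (8.80 to 20.1) in Isl1_KO 2. In both pairs, as in type I, both clones lay outside the control intervals on the same side. Counts of Col1a1 and Col9a3 may include reads of the genes that overlap them on the opposite strand, whose part was not tested. The remaining type IX chain, Col9a2, was at 2.50 and 3.83 CPM in control and 1.23 and 0.607 CPM in Isl1_KO. The type IV pairs were closer to control. Col4a2 held 36.1% (35.2 to 36.9) and 36.2% (35.3 to 37.0) of the counts of Col4a1 and Col4a2 in control, 36.7% (36.0 to 37.4) in Isl1_KO 1 and 34.8% (34 to 35.6) in Isl1_KO 2. Col4a6 held 32.9% and 32.2% of the counts of Col4a5 and Col4a6 in control, 32.3% in Isl1_KO 1 and 35.2% in Isl1_KO 2, with intervals that overlapped in all 4 libraries. Both chains of this pair thus lay below control in level, with shares within counting error of each other.

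The type VI share differed mainly in 1 clone. Col6a3 held 62.7% (60.1 to 65.4) and 62.6% (60.0 to 65.2) of the counts of Col6a1 and Col6a3 in control, 55.6% (53.0 to 58.1) in Isl1_KO 1 and 30.3% (26.1 to 34.8) in Isl1_KO 2. Col6a2 held 29.0% and 31.8% of the counts of Col6a1 and Col6a2 in control, 27.5% in Isl1_KO 1 and 23.7% (19.8 to 28.2) in Isl1_KO 2. Col11a1 held 49.4% and 45.1% of the counts of Col2a1 and Col11a1 in control, 50.3% in Isl1_KO 1 and 34.5% (28.3 to 41.3) in Isl1_KO 2. In this pair Isl1_KO 1 lay with control.

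**Figure D4:**
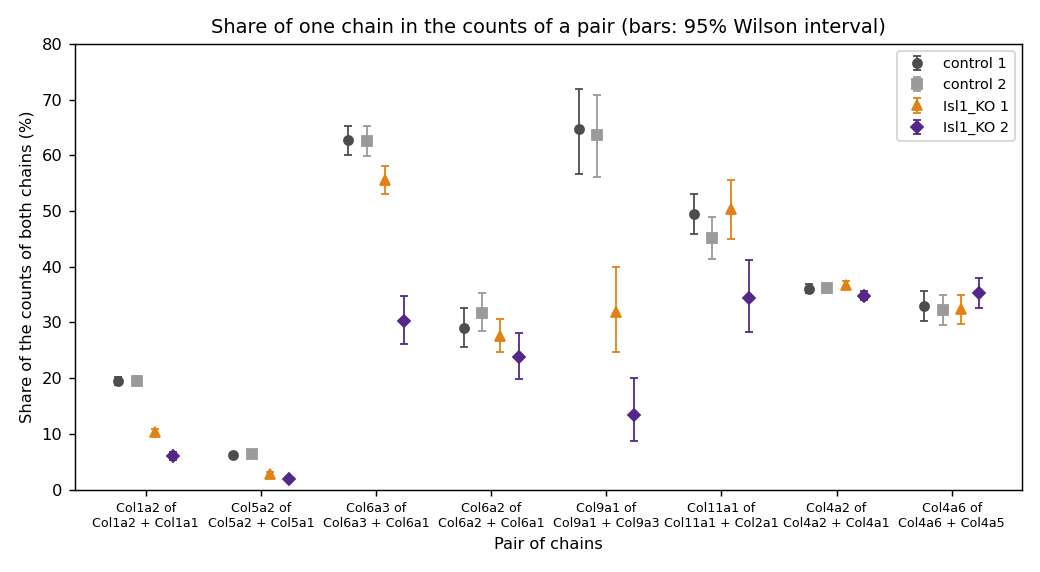
Share of 1 chain in the counts of 2 chains, in percent, for 8 pairs of chains in the 4 libraries; bars are Wilson 95% intervals of counting error. Both Isl1_KO points lie below the control points for Col1a2, Col5a2 and Col9a1, mainly that of Isl1_KO 2 for Col6a3, and the type IV pairs stay between 32.2% and 36.7%.

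Genes that modify, process or bind collagens were taken from lists set with the classes. Of 45 genes in the table, 39 were tested and 0 passed the adjusted threshold in edgeR, where the lowest adjusted p was 0.0705. At an unadjusted p under 0.05 there were 11, against 23.3% of all genes, of which 10 were lower, against 12.2% of all genes. Among the lower genes, Ddr2 passed the low-count filter through the control libraries alone, which favours a lower value. P4ha3 reached the filter level in both controls but in only 1 Isl1_KO library, which favours it likewise. DESeq2 called 3 at an adjusted p under 0.05 (P4ha3, Itga1 and Mrc2), against 4.67% of all genes. The modification and folding list (19 tested, 18 with a fitted value below 0, against 50.4% of all genes) had a median log2 fold change of -0.37. Its most abundant genes per kilobase were P4hb, the shared subunit of prolyl 4-hydroxylase, at 1202 and 1182 CPM in control and 1227 and 1049 CPM in Isl1_KO, and Serpinh1, the collagen chaperone HSP47, at 1096 and 1090 CPM in control and 1162 and 713 CPM in Isl1_KO. Both had Isl1_KO 1 above control and Isl1_KO 2 below. The next were Ppib, a prolyl isomerase of the same complex as Crtap (log2 fold change -0.04), Sparc, a collagen-binding matricellular protein (-0.22), and Plod2, a lysyl hydroxylase (-0.37, adjusted p = 0.170 in edgeR).

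The processing and crosslinking list (12 tested, 7 below 0, near the 50.4% of all genes) had a median of -0.28. Its leading genes were Pxdn, the peroxidase that crosslinks type IV collagen (-0.34), the lysyl oxidase Loxl2 (-0.41), Bmp1, the procollagen C-proteinase (-0.40), its enhancer Pcolce (-0.77), and Adamts2, a procollagen N-proteinase (-0.28), with adjusted p of 0.235 to 0.601 in edgeR. The receptor list (8 tested, 6 below 0, against 50.4% of all genes) had a median of -0.46. Its leading genes were the integrin subunit Itgb1 (-0.22), Ddr1, a collagen receptor tyrosine kinase (0.06), the endocytic receptor Mrc2 (-0.51, adjusted p = 0.0835 in edgeR), Itga1 and Itga10 (-0.41). Itga1, the alpha subunit of a collagen-binding integrin, was at 26.3 and 21.2 CPM in control, 11.1 CPM in Isl1_KO 1 and 4.60 CPM in Isl1_KO 2 (-1.58 ± 0.398, adjusted p = 0.11 in edgeR). Summed, the 3 lists were at 99.2%, 94.5% and 97.9% of control in Isl1_KO 1 and at 76.2%, 62.1% and 71.4% in Isl1_KO 2.

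Markers of other cell types that the sorted cells could hold were summed in the same way, and several were low with the chains in Isl1_KO 2. The marker genes named were picked after their values were seen. The counts of called genes stand against 2.45% of all genes called by edgeR, 23.3% at an unadjusted p under 0.05 and 4.67% called by DESeq2. The 7 smooth muscle markers summed to 3887 and 3881 CPM in control, 3446 CPM in Isl1_KO 1 and 1415 CPM in Isl1_KO 2 (88.7% and 36.4% of control). Of the 7, edgeR and DESeq2 called 0, and 1, Des, was lower at an unadjusted p under 0.05 in edgeR. Acta2, smooth muscle actin, was at 1638 and 1636 CPM in control, 1137 CPM in Isl1_KO 1 and 276 CPM in Isl1_KO 2. At 16.9% of control, it was the lowest of the 7 in Isl1_KO 2. In Isl1_KO 1, Tagln and Smtn lay above control (123% and 106%) and the remaining markers below it. In Isl1_KO 2 all 7 lay below control, Tagln at 50.5% and Smtn at 76.1%. The 10 fibroblast or feeder markers summed to 750 and 752 CPM in control, 769 CPM in Isl1_KO 1 and 406 CPM in Isl1_KO 2. Postn and Pdgfrb held most of this sum. Postn was at 81.6% and 28.5% of control in Isl1_KO 1 and 2, and Pdgfrb at 122% and 63.5%. Of 7 tested, edgeR called 0 and DESeq2 called 1, Dcn, which was lower. At an unadjusted p under 0.05 there were 3, with Dcn and Lum lower and Fbln2 higher. Dcn reached the filter level in both controls but in only 1 Isl1_KO library, which favours a lower value. Lum, a fibril-binding proteoglycan, read 36.7 and 31.7 CPM in control libraries and 10.1 and 2.34 CPM in Isl1_KO, and Fbln2, a matrix glycoprotein, read 90.6 and 87.2 CPM in control libraries and 125 and 115 CPM in Isl1_KO. Fap and Dpt had 0 counts in every library. The part of these cells in the collagen values was not tested.

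The other marker lists were also summed, and are given in percent of the control mean for Isl1_KO 1 and Isl1_KO 2, with the genes called by edgeR, at an unadjusted p under 0.05 and by DESeq2, to be read against the same shares of all genes. The genes counted were lower in Isl1_KO apart from Sox7 of the parietal endoderm list and Sema3d of the epicardial list, both higher at an unadjusted p under 0.05. Endothelial markers were at 90.2% and 95.2% (0, 4 and 1 of 10 genes). Kdr held the largest part of that sum, at 217 and 214 CPM in control, 186 CPM in Isl1_KO 1 and 278 CPM in Isl1_KO 2. The median log2 difference over the 10 endothelial genes was -0.21 in Isl1_KO 1 and -1.10 in Isl1_KO 2, and 8 of them had a fitted value below 0. Parietal endoderm markers, a cell type rich in type IV collagen, were at 90.4% and 60.3% (1, 5 and 3 of 10, with Gata6 called lower by edgeR), and visceral endoderm markers at 80.9% and 34.1% (0, 2 and 1 of 6). The matrix genes Lamc1, Sparc, Nid1 and Lamb1 held most of the parietal endoderm sum, and Sparc is also in the modification and folding list. In that sum Gata6 was at 55.7% and 43.0% of control, Sox7 at 135% and 141%, and Sox17 at 101% and 114%. Epicardial markers were at 61.4% and 48.0% (0, 4 and 0 of 5), with Tbx18 and Msln at most 3 counts in every library. Among the genes counted, Upk3b of this list and Emcn of the endothelial list passed the low-count filter through control alone. Tcf21 (epicardial), Sox18 (endothelial) and Thbd (parietal endoderm) reached its level in both controls but in only 1 Isl1_KO library. Such passes favour a lower value in Isl1_KO. Chondrogenic markers were at 97.2% and 77.9% (0, 1 and 0 of 3), and neural or neural crest markers at 107% and 76.2% (0, 1 and 0 of 4), with Sox10, Pax3 and Foxd3 at most 5 counts in every library. Hapln1 held most of the chondrogenic sum and Nes most of the neural sum, at 101% and 114% of control in Isl1_KO 1. The other tested genes of these lists were there at 78.1% (Sox9), 116% (Matn3), 71.9% (Sox2), 45.1% (Pax6) and 83.1% (Tubb3). Cardiomyocyte markers were at 3.48% and 2.54%, with all 7 tested genes called lower by both tools. The part of these cell types in the collagen values was likewise not tested.

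**Figure D5:**
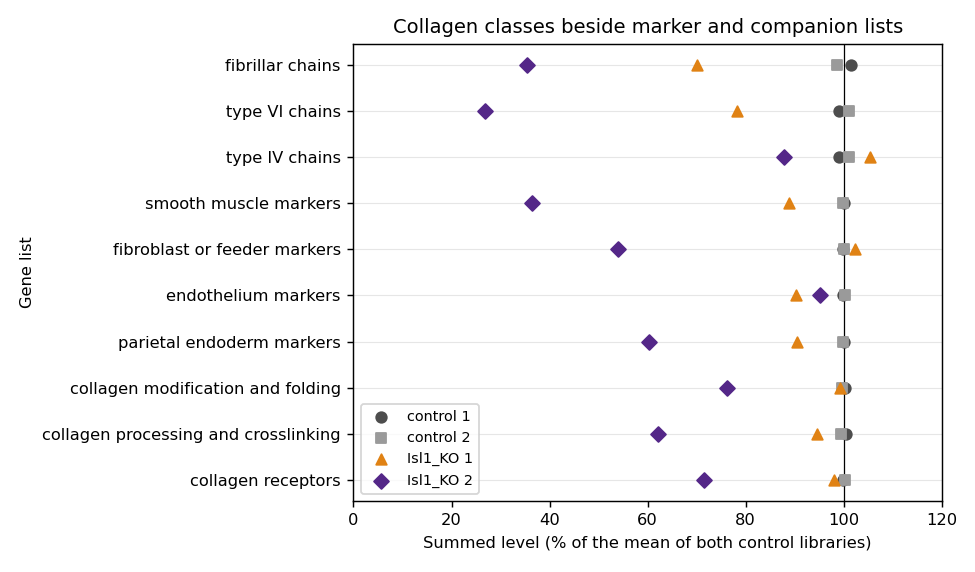
Summed level of collagen classes, companion lists and the marker lists of 4 cell types in each library, in percent of the mean of both control libraries. Fibrillar and type VI chains and smooth muscle markers lie between 26.8% and 36.4% in Isl1_KO 2, while type IV chains lie at 105% in Isl1_KO 1 and 87.8% in Isl1_KO 2. Over the full set of marker lists, visceral endoderm markers, at 34.1% in Isl1_KO 2, also fell in that range, and epicardial markers were at 48.0%.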

How the data were processed

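Poly(A) RNA of sorted cells was made into stranded libraries (2 control, 2 Isl1_KO). The authors mapped reads to mm9 with STAR (introns of 20 to 500000 bases) and used HOMER to count reads in the exons of RefSeq transcripts, both strands combined; STAR, DESeq2, edgeR and mm9 also stand in the submitters' processing notes, without versions. The deposited counts are raw and whole, and a read shared by several transcripts of a gene is counted for each. The deposited RPKM values, made by the authors with edgeR, were used for a check only: recomputed from counts and lengths, they came back within 0.746%. The authors' deposited log2 fold changes with their standard errors, p-values, Wald statistic (a score) and mean normalised signal compare Isl1_KO with control, and were not used. Value columns that matched no sample numbered 0.

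For each of 20701 symbols (31507 entries) 1 entry, that with most counts over the 4 libraries, was kept (57.0% of counts); 15 chains had several entries, up to 3. CPM used effective library sizes (TMM), and a floor of 3 counts was 0.340, 0.328, 0.228 and 0.263 CPM in control 1, control 2, Isl1_KO 1 and Isl1_KO 2. The main test was edgeR's two-sided quasi-likelihood F test (version 4.0.16 in R 4.3.3; TMM, filterByExpr, no covariate). Values were adjusted after Benjamini and Hochberg over the 12715 genes tested, and the threshold was 0.05. The filter level was 0.974 CPM. Standard errors came from the coefficient and its F statistic. DESeq2 1.42.0 was the alternative tool, beside another normalization, other filters, a length offset (loess on transcript length), a replicate block, all entries and each library left out. An exact permutation test of 2 against 2 libraries cannot give a p under 0.333, so the tests rest on spread shared across genes. Nothing in the sources ties clones to separate experiments, so the p-values measure the spread between these libraries. Scripts were tested on simulated counts with the same spread in both groups. This did not cover the unequal spread of the groups found here. Other tools were matplotlib 3.10.9, scipy 1.17.1, numpy 2.4.6 and pandas 2.3.3 in Python 3.11.15, and limma 3.58.1.

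The members, classes and lists were chosen with earlier results of these data known. Named were Isl1, called chains, the 6 chains of each class and the 5 genes of each companion list with the highest level per kilobase, called companion genes, and chains whose clones lay on opposite sides of control by over 1.5-fold (0 were found); chains outside this rule are marked in the text. Of the marker genes listed, 1 is not reported here. Gene positions are of GENCODE vM1 on NCBIM37, the assembly of mm9; Col26a1 is listed there as Emid2. Exons of Col1a1, Col4a1, Col4a2, Col9a3 and Col10a1 overlap a gene on the opposite strand, so their counts are less certain. Titles and protocol describe a knockout but the series' design text a knockdown; groups follow the titles.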

Additional observations from a re-analysis of the deposited data

How the results depend on the processing

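The number of chains called (2) was also 2 with RLE normalization, with at least 10 counts required in every library, with a length offset and with all transcript entries, each time Col2a1 and Col18a1. It was 6 with DESeq2, 6 without a filter on low counts and 14 by the study's criteria. Without control 1 or control 2 it was 0, without Isl1_KO 1 it was 28 and without Isl1_KO 2 it was 23, a range of 0 to 28; in the last 2 fits the lone library is assumed to vary like the control pair, whose spread was 1.29%. Over all genes 311 calls became 604 with DESeq2, 492 without a filter and 993 by the study's criteria, and 27 to 6350 with 1 library left out. Companion calls (0) became 3, 1 and 8 in the same order, and 0 to 29 with 1 library left out. The cause of these shifts in count was otherwise not tested.

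The deviations of libraries with the same replicate number correlated at r = 0.00947 over 12715 genes. Because the control libraries differed so little (1.29%), this value cannot decide whether the replicate numbers pair the libraries. With the number as a replicate block, 454 genes, 8 chains and 1 companion gene were called (Col1a1, Col1a2, Col5a2, Col11a1, Col9a1 and Col16a1 beside Col2a1 and Col18a1), and with the block and the length offset 6 chains and 1 companion gene.

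Class medians with 1 library left out were -1.48 to -0.63 for fibrillar, -0.43 to -0.28 for basement membrane and -1.14 to -0.34 for other chains. Chains past 2-fold in Isl1_KO 1 numbered 7, or 11 with CPM + 0.25 in place of CPM + 1 (7 to 8 without 1 control), and in Isl1_KO 2 they numbered 18 (17 to 18). The log2 fold change changed sign for Col4a1 (0.050 with the length offset, 0.043 with the offset and the block, 0.10 without Isl1_KO 2), for Col4a2 (0.032, 0.019 and 0.14) and for Col26a1 (-0.13 without Isl1_KO 1). Over fits without 1 library these ranged from -0.15 to 0.10 for Col4a1, -0.23 to 0.14 for Col4a2 and -0.13 to 0.40 for Col26a1. With 2 clones a group, changes as small as these are not resolved.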
